A study of Mus musculus with 6 samples.

Results

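The oligoadenylate synthetases are a family of interferon-induced enzymes and enzyme-like proteins, and their 8 genes Oas1a, Oas1b, Oas1c, Oas1g, Oas2, Oas3, Oasl1 and Oasl2 were followed here in mouse cardiac cells before and after cardiac induction. The members were taken by gene symbol from a table of 54532 genes, and all 8 were found there once. The cells were cardiosphere-derived cells of C57BL/6 heart ventricle, named iCDC in the labels and in the study taken from the epicardium. They were immortalized: the line, in both groups, carries human telomerase under a viral promoter from a lentivirus and was selected with puromycin. The control group held 3 libraries of these cells at passage 30. The induced group held 3 libraries of the same line at passage 30, which had been given 10 µM 5-aza (5-azacytidine, an inhibitor of DNA methylation) for 3 days, followed by IMDM holding 2% serum over 4 weeks. The methods of the study give a shorter second phase in another medium, and name a medium richer in serum for routine growth of the line. How long the control cells were kept before RNA was taken is not given in the sources used here, so drug, serum and time in culture cannot be told apart.

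Synthetases of this family are sensors of double-stranded RNA, which forms during viral infection and from some transcripts of the cell itself. On binding it, the active enzymes join ATP into short adenylate chains linked 2′ to 5′, called 2-5A, a signal that leads to the decay of RNA and slows protein synthesis. Transcription of the family is a textbook response to type I interferon, through the receptor chains Ifnar1 and Ifnar2, the kinases Jak1 and Tyk2, and the factor ISGF3, which includes Stat2 and Irf9 and binds the interferon-stimulated response element of promoters.

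All members lie on chromosome 5 in 2 groups. Oasl2 (ENSMUSG00000029561, 114896936 to 114912234, plus strand) and Oasl1 (ENSMUSG00000041827, 114923240 to 114937915, plus strand) are neighbours. The other group runs from Oas2 (ENSMUSG00000032690, 120730333 to 120749853, minus strand) through Oas3 (ENSMUSG00000032661, 120753098 to 120777661, minus strand), Oas1c (ENSMUSG00000001166, 120800194 to 120812514, minus strand), Oas1b (ENSMUSG00000029605, 120812635 to 120824163, plus strand) and Oas1g (ENSMUSG00000066861, 120876142 to 120887613, minus strand) to Oas1a (ENSMUSG00000052776, 120896256 to 120907521, minus strand). These coordinates are those of the deposited table and equal the GRCm38 positions of GENCODE M21 for all 8 genes. Oas1c and Oas1b stand head to head, with 121 bases between the ends where they start. The table annotates Oas1b as a polymorphic pseudogene, and RefSeq lists it as a transcribed pseudogene in C57BL/6J, the strain background in which this gene, known for flavivirus resistance, is truncated.

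Promoter windows were available from RefSeq (GRCm38.p6) for 6 of the 8 members, each with 250 bases before and 50 after the start; Oas1b and Oas2 had no entry. The core of the interferon-stimulated response element, GAAANNGAAA, was searched on both strands. It was found in 4 of the 6 windows, those of Oas1a, Oas1c, Oas1g and Oas3, and in 3.44% of all 32851 windows of the table. The 4 windows are printed 5′ to 3′ along the strand of the gene, with the matches in capitals, because they place the element relative to the starts of the genes, among them those with the largest and the smallest rise.

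Oas1a, chr5:120907476-120907775, minus strand: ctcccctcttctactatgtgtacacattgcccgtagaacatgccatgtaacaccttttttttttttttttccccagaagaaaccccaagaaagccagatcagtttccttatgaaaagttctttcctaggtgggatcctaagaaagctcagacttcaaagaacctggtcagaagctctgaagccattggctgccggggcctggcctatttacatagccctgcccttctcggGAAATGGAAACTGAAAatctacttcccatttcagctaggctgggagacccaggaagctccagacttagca
Oas1g, chr5:120887564-120887863, minus strand: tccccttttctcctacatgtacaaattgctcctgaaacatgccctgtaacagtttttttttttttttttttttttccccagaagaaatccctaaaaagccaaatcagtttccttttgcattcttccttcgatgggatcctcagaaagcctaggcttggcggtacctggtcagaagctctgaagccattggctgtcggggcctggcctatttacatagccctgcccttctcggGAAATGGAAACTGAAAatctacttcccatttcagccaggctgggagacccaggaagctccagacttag
Oas1c, chr5:120812465-120812764, minus strand: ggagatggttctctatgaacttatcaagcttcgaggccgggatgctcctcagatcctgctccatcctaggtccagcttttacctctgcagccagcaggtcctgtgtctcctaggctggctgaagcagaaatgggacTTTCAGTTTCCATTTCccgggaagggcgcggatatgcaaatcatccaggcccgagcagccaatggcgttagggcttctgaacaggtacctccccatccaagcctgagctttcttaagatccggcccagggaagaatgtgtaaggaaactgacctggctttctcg
Oas3, chr5:120777610-120777909, minus strand: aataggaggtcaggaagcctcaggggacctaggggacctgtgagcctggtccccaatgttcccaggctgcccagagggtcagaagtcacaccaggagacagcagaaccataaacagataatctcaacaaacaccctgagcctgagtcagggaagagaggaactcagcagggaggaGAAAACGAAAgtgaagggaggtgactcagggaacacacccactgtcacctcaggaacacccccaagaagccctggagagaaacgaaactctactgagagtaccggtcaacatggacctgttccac

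The windows of Oas1a and Oas1g were 85.3% identical over 306 aligned positions, against 49.3% for Oas1a and Oas1c. In both, 2 matches overlapped by 4 bases and began at -20 and -14 from the start of Oas1a and at -18 and -12 from that of Oas1g. Together they formed the 16 bases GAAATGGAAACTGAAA. The same 16 bases, picked for this search after the sequences were seen, lay on the opposite strand of the Oas1c window, which is the strand of Oas1b, and began at -22 from the start of Oas1b. Of all windows, 7 (0.0213%) held this run on either strand, namely those of Oas1a, Oas1g and Oas1c and 4 windows of Apol9a and Apol9b. The match of Oas3 was GAAAACGAAA at -75. In the windows of Oasl1 and Oasl2 these letters were not found. A match is a description of the sequence, and methylation and factor binding were not measured here.

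Depth was even: total counts ranged from 19041133 to 19823369 reads per library, and replicates of a group were further apart than sampling noise (their chi-square was 2.56 to 8.91 times its degrees of freedom), and each was counted as its own sample. Levels are given as CPM, read counts scaled to library size with the TMM factors of edgeR. Markers of mesenchymal or cardiosphere cells were abundant: Thy1, Eng, Ly6a, Tbx18, Pdgfra and Col1a1 all passed the filter on low counts, 2 of them higher and 4 lower after induction. Of 10 leukocyte markers, Ptprc, Itgam, Tyrobp, Cd52, Adgre1 and Cd3e had 0 reads in every library, Cd79a had 16 reads in control and 18 in induced libraries, Lyz2 and Cd68 were higher in induced cells (log2 fold changes 1.96 and 3.89) and Csf1r was lower (-1.05). Their summed level was 27.4 to 30.3 CPM in control and 51.1 to 59.2 CPM in induced libraries, and its part in the results was not tested. Endothelial markers had 93 reads in control and 70 in induced libraries, with Tie1 at 0, and cardiomyocyte markers 91 and 157. Of the latter, Tnni3 had 90 reads in control and 115 in induced libraries and was not called. Ryr2 had 1 and 29 reads, Actn2 0 and 8 (all in induced replicate 2), Nppa 0 and 4, and Myh6 0 and 1. These last genes did not pass the filter and were not tested. The libraries are numbered as separate samples, and the methods of the study speak of biological replicates, though of fewer per group than the table holds. A figure legend of the study for this comparison gives the same number as the table. No source used here describes separate cultures. The p-values set the group difference against the spread between these samples, which may be technical, and may not extend to new cultures.

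The comparison asked how the synthetase genes differ between induced and control cells. All 8 were higher after induction, in the quasi-likelihood test of edgeR (adjusted p under 0.05, Benjamini-Hochberg, over 14246 genes), where 64.8% of all genes tested were called. Of all genes tested, 32.6% were called higher and 32.2% lower. At least 2-fold rises were found for 7 of the 8, against 9.29% of all genes tested. In each of the 8 genes the lowest induced library lay above the highest control library, which held for 34.1% of all genes. Only Oas1b, Oas1c and Oasl2 had at least 10 reads in every control library. The other 5 passed the filter on low counts through the induced libraries alone, so that passing it already required a difference. The counts of 8 and of 7 are therefore descriptions. In bulk RNA, more cells expressing a gene and more RNA per cell cannot be told apart.

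**Figure D1:**
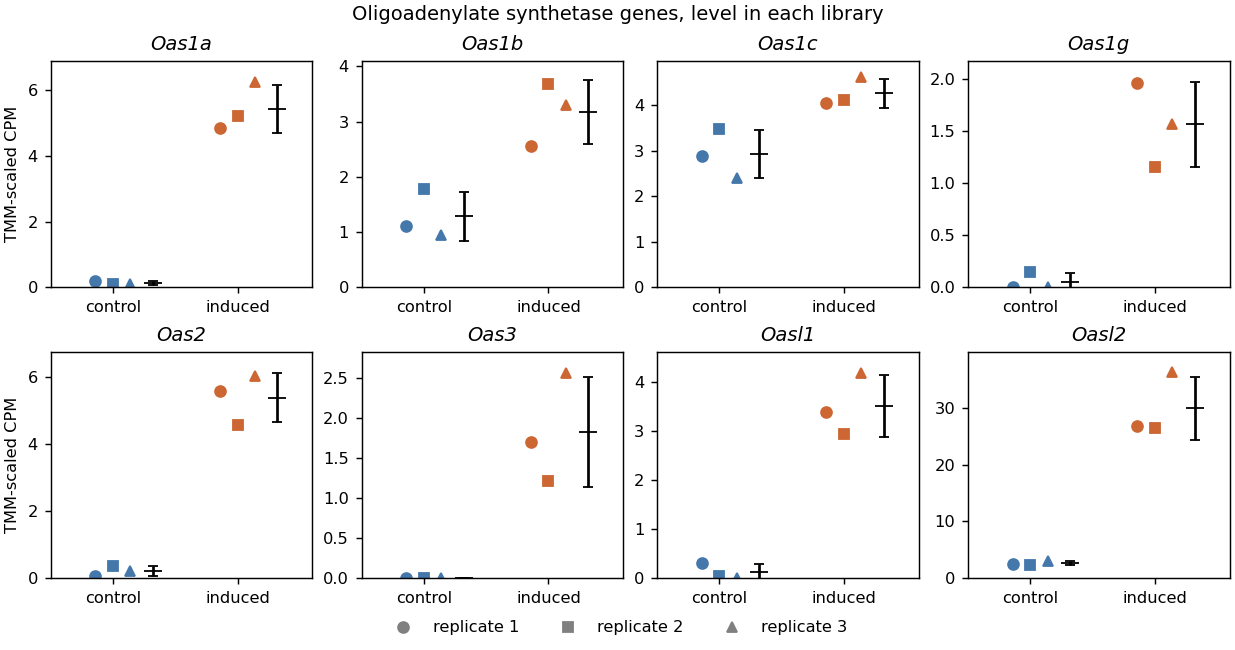
Level of each of the 8 synthetase genes in each library, in TMM-scaled CPM on linear axes that start at 0 and differ between panels; symbols are the 3 replicates of a group, and the bar beside them is the mean ± SD, cut at 0. In every panel all 3 induced libraries lie above all 3 control libraries, with the narrowest gap in Oas1c.

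Oasl2, which carries ubiquitin-like domains and an active synthetase domain, had the most reads of the family in induced libraries. In control libraries Oas1c had more, 173 reads against 157. Levels of Oasl2 were 2.53, 2.40 and 3.01 CPM in control libraries and 26.8, 26.5 and 36.3 CPM in induced libraries. It rose 11.3-fold (log2 fold change 3.49, SE 0.15, edgeR adjusted p 2.86e-13), from 2.64 ± 0.320 to 29.9 ± 5.54 CPM (SD, n = 3). Induced replicate 3 stood above the other two induced libraries.

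Oasl1 has the same ubiquitin-like build but is known for lacking synthetase activity and for holding back translation of Irf7. Control libraries had 6, 1 and 0 reads and induced libraries 64, 56 and 80 reads. Its level went from 0.118 ± 0.163 to 3.51 ± 0.631 CPM (SD, n = 3), a log2 difference of 4.82 with SE 0.46 (edgeR adjusted p 4.20e-08). Most of its control reads came from 1 library, and without control replicate 1 the log2 fold change was 6.80. An antisense gene, Gm13822, covers 1.46% of the exon bases of Oasl1 and had 0 reads in every library.

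Oas1a and Oas1g are the paralogues known as active small synthetases. Oas1a had 4, 2 and 2 reads in control and 91, 99 and 119 reads in induced libraries, a rise from 0.135 ± 0.0587 to 5.43 ± 0.726 CPM (SD, n = 3). The log2 difference was 5.27 with SE 0.33 (edgeR adjusted p 8.48e-11). Oas1g had 0, 3 and 0 reads in control and 37, 22 and 30 in induced libraries. The ratio of its pooled reads was 30.9 with a 95% exact interval of 10.2 to 152.8 that covers counting error only, and the edgeR adjusted p was 2.21e-06. The groups were far apart in both genes, but their reads were not fully separable: 40.9% of the 100-base windows of Oas1a transcripts and 31.2% of those of Oas1g occurred in the other gene, and reads from them may have been dropped or split in counting. No transcript of Oas1b, Oas2, Oas3, Oasl1 or Oasl2 shared such a window with another gene.

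Oas2 and Oas3 encode the members built from repeated synthetase-type domains, of which Oas3 makes the longest protein and binds long double-stranded RNA. Oas2 had 1, 7 and 4 reads in control and 105, 87 and 115 in induced libraries, a rise from 0.203 ± 0.153 to 5.39 ± 0.743 CPM (SD, n = 3). The log2 difference was 4.69 with SE 0.34 (edgeR adjusted p 7.50e-10). Without control replicate 2, which held 7 of its 12 control reads, the log2 fold change was 5.35. Oas3 was the member with 0 reads in all 3 control libraries, against 32, 23 and 49 reads in induced libraries. At 1.83 ± 0.688 CPM (SD, n = 3) in induced cells it was at least 36.1-fold higher than the limit of 3 reads summed over the control group (edgeR adjusted p 4.28e-07).

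Oas1b and Oas1c, the head-to-head pair, moved least and were the members with most reads in control cells beside Oasl2. Oas1b had 1.11, 1.78 and 0.952 CPM in control libraries and 2.55, 3.68 and 3.30 CPM in induced libraries, a 2.47-fold rise (log2 fold change 1.31, SE 0.26, edgeR adjusted p 0.000265). Oas1c had 2.89, 3.47 and 2.40 CPM in control libraries and 4.04, 4.10 and 4.61 CPM in induced libraries, a 1.46-fold rise (log2 fold change 0.54, SE 0.18, edgeR adjusted p 0.0158). The groups did not overlap in either gene, yet in Oas1c the gap between them was narrower than the range within control cells. This call was lost without control replicate 3 (adjusted p 0.0761) and without induced replicate 3 (0.0567), with a range of 0.00814 to 0.0761 over its alternatives. An antisense gene, Gm43069, covers 9.44% of the exon bases of Oas1c and had 0 reads in every library.

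The other Oas1 paralogues were silent or nearly so. Oas1d, Oas1f and Oas1h had 0 reads in all 6 libraries, and Oas1e had 0 in control and 3 in induced libraries, so none was tested. A count of 0 allows up to 0.150 to 0.159 CPM per library, taking 3 counts as the limit. With the reads of all 8 Oas1 genes summed into one feature, control libraries held 83, 108 and 69 reads and induced libraries 254, 269 and 301. The log2 fold change of the sum was 1.72 (SE 0.14, edgeR adjusted p 5.52e-09). By construction a sum lies between the largest and the smallest change of its parts. Its place under Oas1a and Oas1g and over Oas1b and Oas1c is therefore a description.

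Because transcripts differ in length, levels between genes were compared in FPKM, fragments per kilobase of gene length scaled to the depth of the library, as the authors deposited them. In control cells Oas1c was the highest (1.20 ± 0.216 FPKM, SD, n = 3), followed by Oas1b (0.638 ± 0.218) and Oasl2 (0.411 ± 0.0506), and all other members had means under that of Oasl2. The ranges of Oas1c and Oas1b did not meet. Those of Oas1b and Oasl2 came close, the lowest library of the former being at 0.474 and the highest of the latter at 0.468 FPKM. In induced cells the order was led by Oasl2 (4.68 ± 0.871) and Oas1a (2.87 ± 0.385), whose ranges were apart. Oas1c (1.76 ± 0.131) and Oas1b (1.59 ± 0.286) overlapped, as did Oas1b with Oasl1 (1.35 ± 0.243) and Oasl1 with Oas2 (1.21 ± 0.168). Oas1g (0.668 ± 0.174) and Oas3 (0.258 ± 0.0974) came last and were apart from each other and from Oas2. The places of Oas1a and Oas1g carry the limit on shared reads given above, which FPKM does not correct.

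The make-up of the family thus differed between the groups. Oas1c and Oas1b together were the bulk of the summed FPKM in control cells: Oas1c took 48.8% to 50.2% and Oas1b 23.3% to 30.5%. In induced cells Oas1c took 11.6% to 12.8% and Oas1b 9.57% to 13.9%. Oasl2 went from 12.8% to 23.0% in control cells to 31.3% to 34.3% in induced cells, and Oas1a from 1.84% to 4.49% to 19.2% to 20.8%. The summed level was 2.03 to 2.90 FPKM in control libraries and 13.3 to 16.6 FPKM in induced libraries. Shares move together by construction, and they were not tested. The limit on the reads of Oas1a and Oas1g holds for their shares too.

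**Figure D2:**
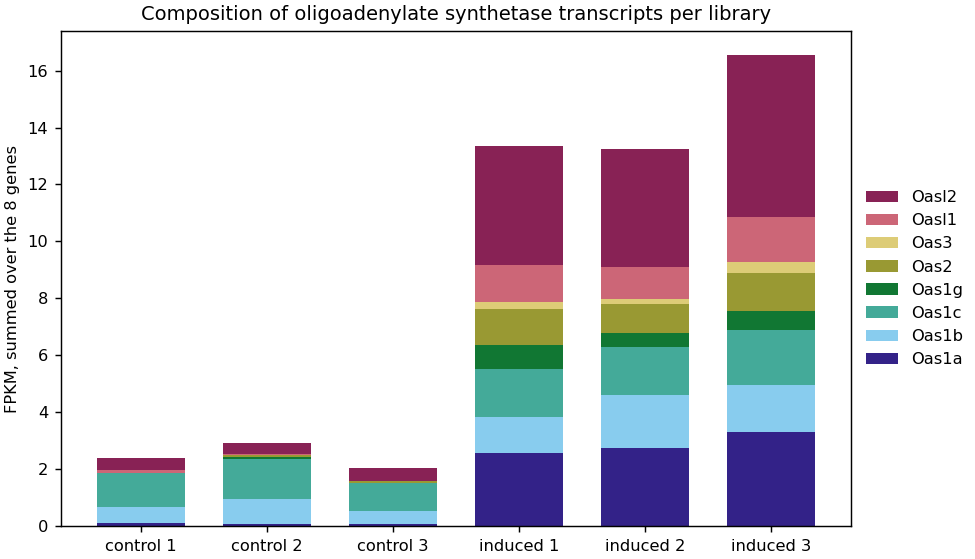
Stacked FPKM of the 8 synthetase genes in each of the 6 libraries, with the axis starting at 0. The control stacks reach 2.03 to 2.90 FPKM and are mostly Oas1c and Oas1b, and the induced stacks reach 13.3 to 16.6 FPKM and are led by Oasl2 and Oas1a.

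Within the induced group, replicate 3 had the highest CPM for 6 of the 8 genes (75.0%), against 28.4% of all genes tested, and was the lowest for 0 of 8. The exceptions were Oas1b, highest in replicate 2, and Oas1g, highest in replicate 1. Among the sensors and regulators of double-stranded RNA described further on, replicate 3 was the highest for 5 of 8 genes. Among the interferon receptor and ISGF3 genes, also described further on, it was the highest for 2 of 6 (33.3%). The summed level of the 8 synthetases was 50.9, 49.4 and 64.8 CPM in the induced libraries and 7.09, 8.31 and 6.66 CPM in the control libraries.

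Genes that act on the 2-5A signal differed little. Of the enzymes that degrade 2-5A, Akap7 was higher by a log2 difference of 0.37 (edgeR adjusted p 0.0104), lost without induced replicate 1 (0.0581). Pde12 was higher by 0.21 (adjusted p 0.0408), a call lost under 9 of 14 alternatives, where its adjusted p reached 0.156. Abce1, a ribosome recycling protein that is also known to restrain 2-5A signalling, went from 102.3 ± 2.29 to 97.3 ± 5.83 CPM and was not called (adjusted p 0.266). Of these 3 partners, 2 were thus called higher, 0 of them 2-fold (32.6% and 9.29% of all genes tested). Their median log2 fold change was 0.21, against -0.01 for all genes tested. That of the synthetases was 4.74, but 5 of the 8 passed the filter through the induced libraries alone. The median of the synthetases is therefore a description, not a test against the partners.

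**Figure D3:**
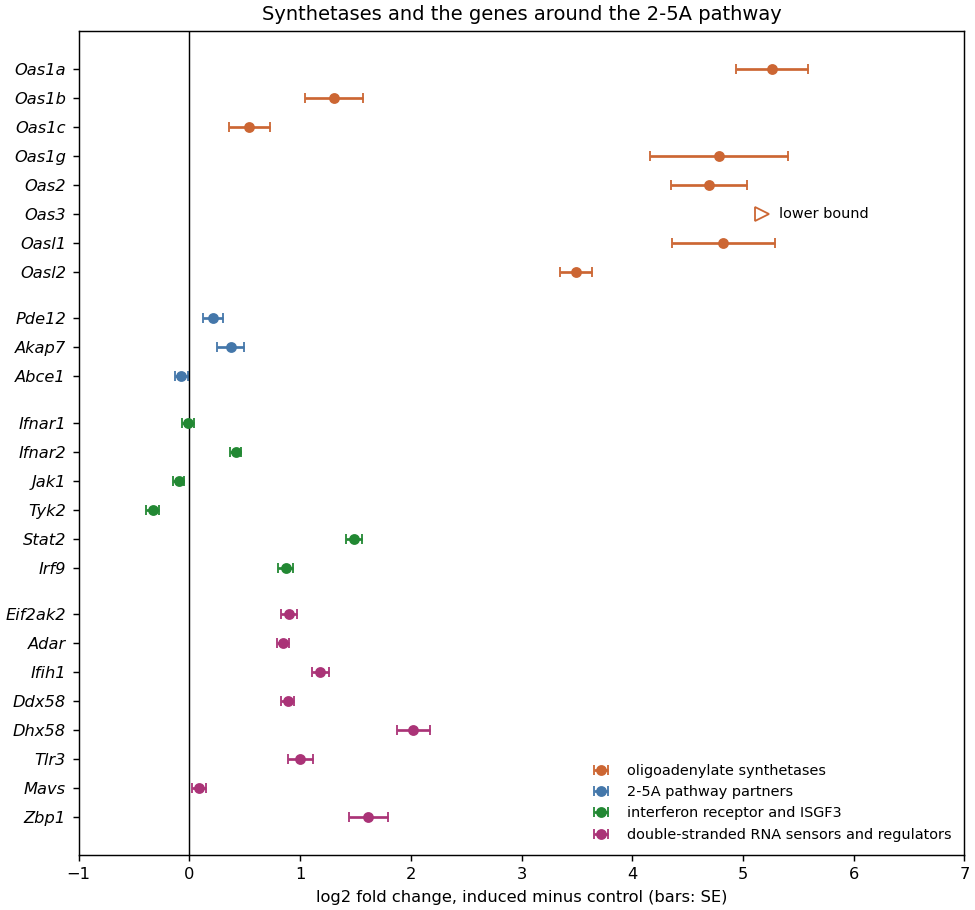
Log2 fold change of induced against control cells, with the standard error as a bar, for the 8 synthetases and for the fixed lists around them. The open triangle of Oas3 is a lower bound, since control cells had 0 reads. Apart from Oas1b and Oas1c, the synthetases lie above 3 on this scale, the 2-5A partners lie near 0, and Dhx58 is the highest of the sensors at 2.02.

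Upstream, the interferon receptor and its kinases moved little, while the 2 ISGF3 genes described here rose. Of 6 genes of this list, 3 were called higher and 1 lower, with a median log2 fold change of 0.20; the 4 calls are a share near the 64.8% of all genes tested. Stat2 rose from 30.5 ± 2.54 to 85.4 ± 7.74 CPM and Irf9 from 29.5 ± 1.70 to 53.9 ± 3.98 CPM (SD, n = 3). Ifnar2 rose by 0.42 on the log2 scale, and Tyk2 was lower (-0.33). Ifnar1 and Jak1 had log2 fold changes of -0.01 and -0.10 and were not called (adjusted p 0.889 and 0.0940). The interferon genes themselves were close to silent, with 3 reads in control and 5 in induced libraries over 21 genes, of which 16 had 0 reads throughout. None of these passed the filter, so none was tested, and small differences could not be detected at these read numbers.

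The listed sensors and regulators of double-stranded RNA, except Mavs, also rose. Their fold changes lay above that of Oas1c and below those of the 6 synthetases other than Oas1b and Oas1c. Of those 6, all but Oasl2 passed the filter on low counts through the induced libraries alone. This order is therefore a description, not a test. Of 8 listed sensors and regulators, 7 were called higher, 4 of them at least 2-fold, with a median log2 fold change of 0.95, where 32.6% of all genes tested were called higher and 9.29% at least 2-fold higher. Dhx58, a relative of the RIG-I helicase, stood at 4.40 ± 0.532 CPM before and 17.9 ± 3.61 CPM after induction (SD, n = 3), 2.02 apart on the log2 scale. Ifih1, the sensor MDA5, rose by 1.18 and Adar, which edits double-stranded RNA and so lessens its sensing, by 0.85. Eif2ak2, the kinase PKR that halts translation, rose by 0.90. Mavs, the adaptor of the helicases, had a log2 fold change of 0.08 and was not called (adjusted p 0.261).

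Most genes beside the synthetases moved by small factors, in both directions. Within 250 kb of a member, 24 other genes were tested, of which 11 were called higher, 7 lower and 6 in neither direction, with a median log2 fold change of 0.09, against 32.6% higher and 32.2% lower over all genes tested. The 3 with the smallest p were Tpcn1, Plbd2 and Cabp1, which rose by 0.69, 0.59 and 3.25. Cabp1, 230774 bases from Oasl1, was the single neighbour called at least 2-fold higher, from 0.438 ± 0.177 to 4.24 ± 0.705 CPM (SD, n = 3). The nearest tested neighbour, 2210016L21Rik, 4243 bases from Oasl1, was at 38.7 ± 0.772 and 41.5 ± 2.46 CPM and was not called (adjusted p 0.163). Rasal1, the nearest tested gene to Oas2, was lower (-1.36).

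**Figure D4:**
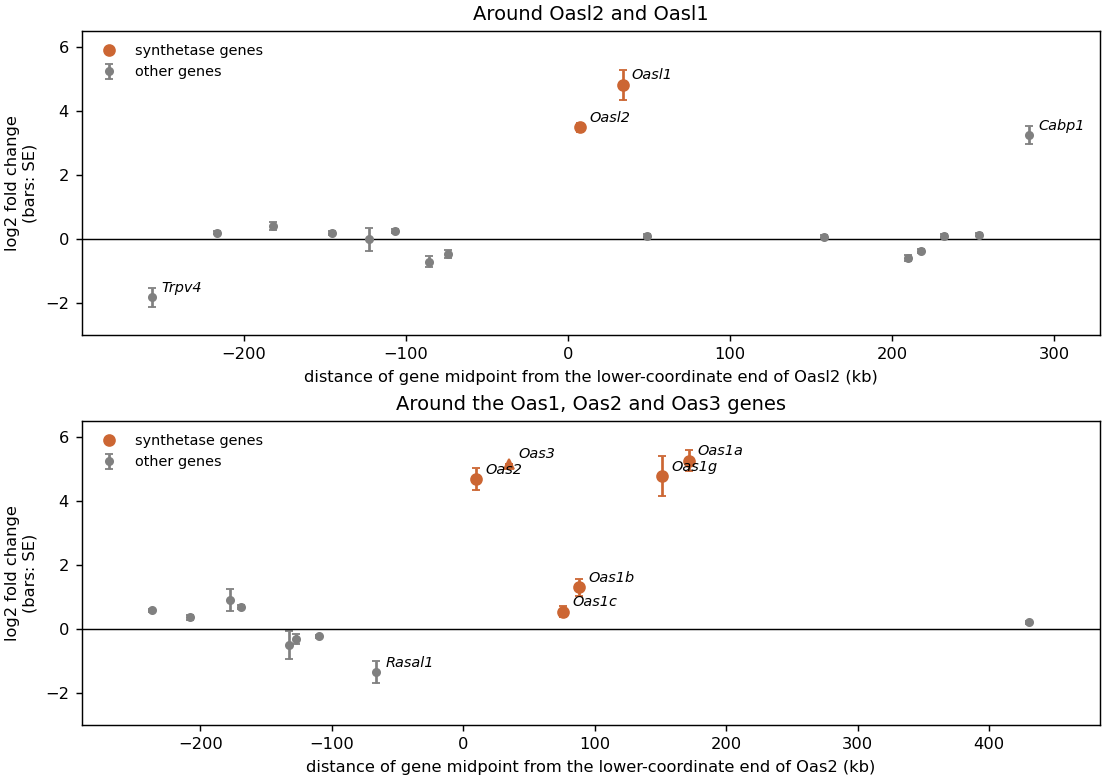
Log2 fold change with its standard error for the synthetase genes and for the tested genes within 250 kb of them, against the distance in kb of the gene's midpoint from the lower-coordinate end of Oasl2 (upper panel) or Oas2 (lower panel). The triangle of Oas3 is a lower bound. The synthetases other than Oas1b and Oas1c lie above 3, and Cabp1, at 3.25, is the one gene outside the family above 1.

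Over the 6 libraries, the profiles closest to the mean standardized profile of the 8 synthetases were those of genes that include Gm20744, Cdhr1, Sh3rf2 and Tmem185a, with Pearson r of 0.9987 to 0.9996. As 2251 genes had an r above 0.95, such likeness mostly follows the group difference, and the 6 points share 2 groups. With group means removed, the closest were Cep57l1, Stard6, Ccdc30, Tln2 and Mrps10 (r 0.9882 to 0.9992), none of them among those above. By this measure 61 genes had an r above 0.95. With so few libraries a high r can arise without a link, and none was tested.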

How the data were processed

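RNA of 3 control and 3 induced samples was sequenced from NEBNext Ultra libraries, a kit that does not mark strand. The authors deposited raw read counts per gene and library, and FPKM values scaled to gene length and library depth. The submitters' processing notes name mm10, HISAT2 2.0.5, featureCounts 1.5.0-p3 and DESeq2 1.16.1, with no settings. The table also holds the authors' group means (a normalized signal), log2 fold changes and p-values, and their Gene Ontology tables list enriched terms; these deposited results were not used.

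The count test ran in edgeR 4.0.16 (R 4.3.3): filterByExpr (minimum count 10, minimum total 15), TMM scaling, and the two-sided quasi-likelihood test with Benjamini-Hochberg adjustment at 0.05 over 14246 genes. Levels are TMM-scaled CPM. Standard errors were derived from F statistics, and a prior count of 0.125 entered the fitted fold changes. Alternatives used DESeq2 1.42.0, limma 3.58.1 and other filters, scalings and library sets. The tests were checked on simulated counts with the same spread for all genes and few changed genes, a simpler setting than these data.

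The members and lists were chosen with earlier results of these data known. Named genes are the members, up to 3 per list and the neighbours with the smallest p, and the 5 closest profiles; other listed genes may be named. Some genes under this rule are not reported here and were left out of the list counts. Libraries with the same number did not deviate together (correlations -0.0151 to 0.0273), so the numbers were not taken as pairs. Total counts of 19041133 to 19823369 reads per library set the precision; intervals and limits cover counting error only.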

Additional observations from a re-analysis of the deposited data

How the results depend on the processing

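All 8 synthetases were called higher under DESeq2, library totals or median-ratio factors as scaling, either other filter, both limma fits, the replicate block (8 called) and when any of 4 libraries was left out; Oas1c was the call lost without control replicate 3 or induced replicate 3. With the reads of the Oas1 genes summed there were 5 features, of which 5 were called and 5 were at least 2-fold higher. Of the 8 genes, 4 were at least 2-fold higher in the limma fit of log2(FPKM + 1), whose pseudocount understates low genes, and 7 under every other alternative that kept the genes apart. When single libraries were left out, the log2 fold change of Oas1c ranged from 0.42 to 0.68, and of the 3 partners of 2-5A signalling 1 was called whichever library was left out, against 2; it was also 1 under DESeq2, library totals and both limma fits. Members with few control reads depended on single control libraries: without control replicate 2 Oas1g had 0 control reads left and Oas2 reached 5.35, and without control replicate 1 Oasl1 reached 6.80. Ifnar1, near 0 throughout, changed sign under DESeq2 (0.00102), median-ratio size factors (0.00101), limma on log2(FPKM + 1) (0.00078) and on log2(FPKM + 0.1) (0.00079), and ranged from -0.0281 to 0.0341 without single libraries. Of 112 values of the 8 members under alternatives, 110 kept direction and call and 0 reversed; of 238 values of the 17 pathway genes, 220 did. Within 500 kb, 29 neighbours were called, 15 higher and 14 lower, more genes being tested (41). Of all genes tested, 64.8% were called. With 1 base in place of the pair between the GAAA units, the promoter motif was found in 1 of 6 windows, that of Oas3, and in 3.17% of all windows. With CT required after the second GAAA it was found in 3 of 6 windows, without that of Oas3, and in 0.271% of all windows. The replicate block changed no call among the members and the 17 pathway genes. Depth limits the low members: 5 of them had under 10 reads in a control library, and their fold changes carry wide counting intervals.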
